A study of Mus musculus with 12 samples.

Results

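The Id genes and the BMP (bone morphogenetic protein) pathway were examined in the retinal pigment epithelium (RPE) of rd6 mice, which lack functional MFRP, a membrane protein of the RPE. The 10 members are *Id1*, *Id2*, *Id3* and *Id4*, the ligands *Bmp2*, *Bmp4* and *Bmp7*, and the inhibitors *Smad6*, *Smad7* and *Bambi*. They were taken by gene symbol from the 28591 genes of the table, and all 10 passed the filter on low values described below. RNA-seq libraries came from 6 wild-type (WT) mice of the C57BL/6J strain and 6 mice with the *Mfrp* rd6/rd6 genotype, all 1 mo old and given no treatment that the labels name. RPE of both eyes of an animal was combined, and the sources say that both sexes were used. The labels give no strain background for the rd6 mice, so a difference of strain and the effect of the rd6 allele cannot be told apart.

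BMP ligands are secreted dimers that bind type I and type II serine/threonine kinase receptors. The activated receptors phosphorylate the receptor-regulated Smads (Smad1, Smad5 and Smad9), which enter the nucleus with Smad4 and raise transcription of target genes. The Id genes are among the best known of these targets. Id proteins hold a helix-loop-helix but no DNA-binding region, and they pair with E proteins such as Tcf3, Tcf4 and Tcf12 and keep them off DNA. *Smad6*, *Smad7* and *Bambi* are targets that act back on the pathway as inhibitors. The RPE is a known source of BMP ligands in the eye, where changes of *Bmp2*, *Bmp4* and *Bmp7* have been tied to eye growth in the chick, and loss of MFRP goes with small eyes in humans.

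The 4 Id genes are paralogs, so the sequence that they share is shown first. The stretch below is part of the coding sequence for the helix-loop-helix in the first exon of each gene, on GRCm38 (the assembly called mm10) with GENCODE M21 annotation. Of its 120 aligned bases, 70 are identical in all 4 genes, and these are in capitals. It is at chr2:152736520-152736639 on the + strand for *Id1*, chr12:25095781-25095900 on the - strand for *Id2*, chr4:136144004-136144123 on the + strand for *Id3* and chr13:48261695-48261814 on the + strand for *Id4*.
Id1: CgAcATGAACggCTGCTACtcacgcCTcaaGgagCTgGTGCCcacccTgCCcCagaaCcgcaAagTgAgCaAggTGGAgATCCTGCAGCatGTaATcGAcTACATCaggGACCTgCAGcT
Id2: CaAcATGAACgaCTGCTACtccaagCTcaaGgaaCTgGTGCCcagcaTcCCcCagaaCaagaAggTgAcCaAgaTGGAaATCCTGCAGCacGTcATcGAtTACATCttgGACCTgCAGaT
Id3: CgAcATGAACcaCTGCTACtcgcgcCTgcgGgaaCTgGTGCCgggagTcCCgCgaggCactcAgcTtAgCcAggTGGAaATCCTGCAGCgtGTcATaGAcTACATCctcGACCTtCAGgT
Id4: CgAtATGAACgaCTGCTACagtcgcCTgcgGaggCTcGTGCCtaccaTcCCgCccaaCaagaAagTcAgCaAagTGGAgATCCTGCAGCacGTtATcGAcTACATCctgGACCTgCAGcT

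Over this stretch the pairs of genes were 70.8% (*Id1* and *Id3*) to 80.8% (*Id1* and *Id2*) identical. Over the whole coding sequences, of 357 (*Id3*) to 483 (*Id4*) bases, identity was 60.5 to 64.2%. The longest run of bases that any pair had in common was 17. No run of 50 bases of the annotated transcripts of *Id1* or *Id3* occurred in a transcript of another gene. For *Id2*, 8 of 2433 such runs were shared, with *Gm6175*, and for *Id4*, 79 of 3800, with the overlapping noncoding genes *A330033J07Rik* and *Gm49291*. For *Bmp4*, 57 of 2246 runs (2.54%) were shared, with transcripts of 511 genes, and for *Bmp7*, 1 of 3895. *Bmp4* and *Id4* overlap annotated genes on the opposite strand, and as the use of strand in counting is not stated, their values are uncertain to that extent. None of the other 8 members overlaps another annotated gene.

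The libraries held between 28907262 and 33152725 reads on genes, and values are normalized counts, that is, reads divided by the size factor of the library. *Mfrp* itself (chr9:44101729-44109187) ranged from 30132 to 45442 normalized counts in WT and from 20442 to 29732 in rd6 libraries, with no overlap. The rd6 allele leaves most of the transcript in place, and *Mfrp* overlaps 4 other annotated genes. This level therefore checks the labels only in part. The RPE markers were abundant in every library (summed level of 12 markers, 1518830 to 2259500 in WT and 1438000 to 1919690 in rd6), apart from *Best1*, whose mean was 19.2 in WT and 29.2 in rd6. WT replicate 4 had the lowest RPE marker sum and the lowest *Mfrp* value of the WT libraries. Markers of other cells were also present, as given below with the results. In these bulk samples, fewer cells of a type and less RNA per cell cannot be told apart.

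Changes were tested with limma on log2(value + 1) over the 17768 genes whose mean was 10 or more, with q, the p-value after Benjamini-Hochberg adjustment over all of them, required to be below 0.05 for a call. *Id1*, *Id2*, *Id3* and *Smad6* rose in rd6 RPE, and *Bmp2*, *Bmp4* and *Bmp7* fell. Thus 4 of 10 members were called higher, where 11.4% of all tested genes were, and 3 of 10 were called lower, against 11.6% of all tested genes. The median log2 fold change was 0.28 over the members and 0.0049 over all genes tested. The same 7 members were those whose 6 rd6 libraries all lay on one side of the 6 WT libraries. Among all tested genes, 5.77% lay wholly above and 5.67% wholly below. With the study's limit on the size of the change added, *Id1*, *Id2* and *Id3* were higher (3 of 10, beside 4.69% of all genes) and *Bmp4* lower (1 of 10, beside 2.12%). *Id4*, *Smad7* and *Bambi* did not pass the test.

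**Figure D1:**
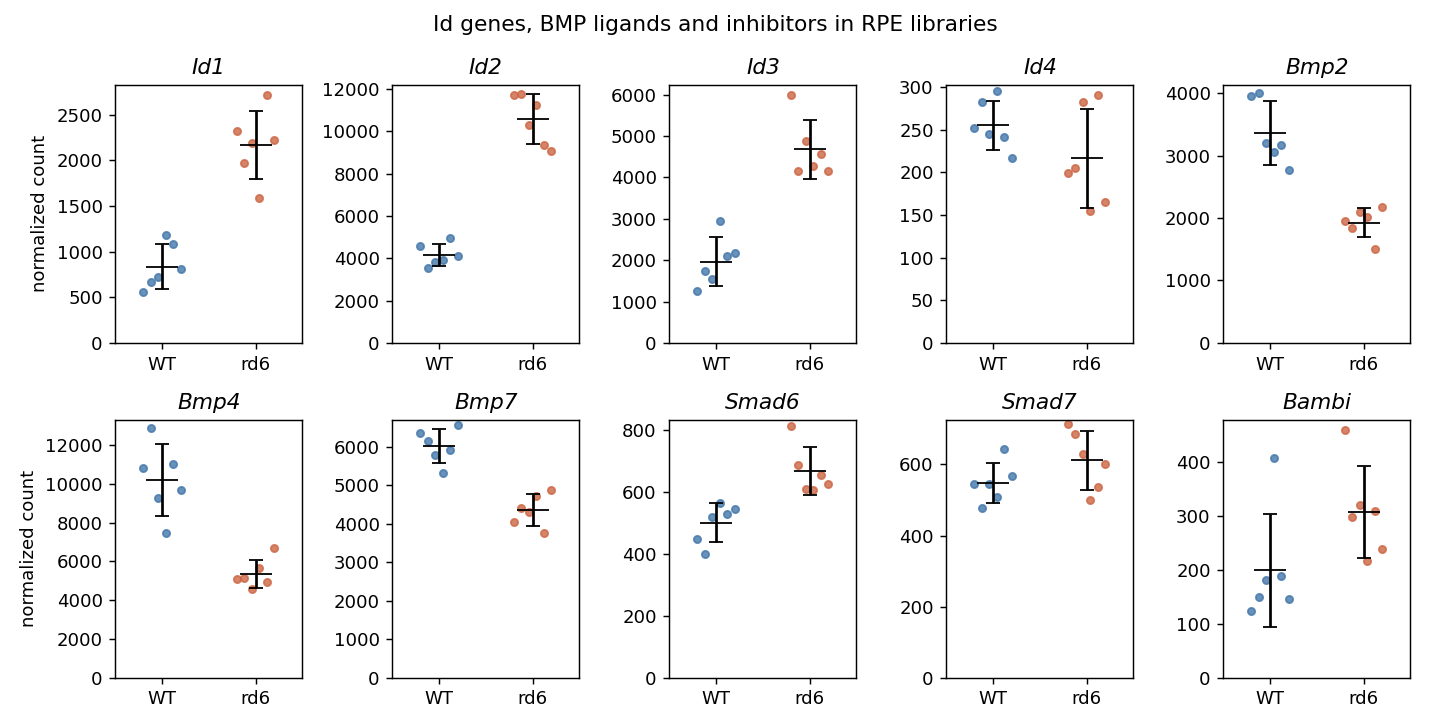
Normalized count of each member (vertical axis, starting at 0, with its own scale in each panel) in the 6 WT (blue) and 6 rd6 (red) libraries; bars show the mean and SD. The rd6 points lie above all WT points for *Id1*, *Id2*, *Id3* and *Smad6*, below them for *Bmp2*, *Bmp4* and *Bmp7*, and overlap them for *Id4* (4 of 6 rd6 points below all WT points), *Smad7* and *Bambi*.

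Among the Id genes, the inhibitors of E proteins, *Id1* (ENSMUSG00000042745, chr2:152736251-152737410) ran from 559 through a median of 767 to 1181 normalized counts in WT libraries, and from 1593 through 2206 to 2719 in rd6 libraries. The lowest rd6 library, replicate 4, was thus above the highest WT library, which was also replicate 4. *Id1* rose 2.65-fold (95% confidence interval 2.02 to 3.46, log2 fold change 1.40 ± 0.18 SE, limma q = 0.00012, n = 6 per genotype). *Id2* (ENSMUSG00000020644), a regulator of differentiation in many tissues, had its lowest, median and highest WT values at 3547, 4014 and 4963, and at 9054, 10781 and 11785 in rd6. The gap between the genotypes was wider than the range within either of them. Its increase was 2.55-fold (95% confidence interval 2.22 to 2.93), with the smallest error among the Id genes (log2 fold change 1.35 ± 0.09 SE, limma q = 5.7e-07).

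*Id3* (ENSMUSG00000007872, chr4:136143497-136145755) spanned 1264 to 2948 in WT, with a median of 1920. In rd6 it spanned 4160 to 5999, with a median of 4424. WT replicate 4 was well above the other WT libraries, whose highest value was 2182, yet below every rd6 library. The gene rose 2.45-fold (95% confidence interval 1.89 to 3.18, log2 fold change 1.29 ± 0.17 SE, limma q = 0.00018). *Id4* (ENSMUSG00000021379, chr13:48261228-48266026) had the lowest level per length of the family (below), with 217 to 295 in WT (median 248) and 155 to 291 in rd6 (median 202). Of its rd6 libraries, 4 lay below the WT range and the other two, replicates 3 and 5, lay inside it. Its log2 fold change was -0.27 (95% confidence interval -0.62 to 0.07, limma q = 0.24), so that a fall was not separated from the spread between libraries. An exact permutation test of each member over all splits into 6 and 6 gave p = 0.0022 for *Id1*, *Id2* and *Id3*, the smallest that this design allows, and p = 0.14 for *Id4*.

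The 3 ligands moved the other way. *Bmp2* (ENSMUSG00000027358, chr2:133552159-133562885), a secreted BMP of the same branch as *Bmp4*, lay between 2774 and 4007 in WT (median 3183) and between 1500 and 2179 in rd6 (median 1978). Replicate 5 was the lowest of the rd6 libraries. *Bmp2* fell by 0.80 on the log2 scale (1.74-fold lower, SE 0.11, limma q = 0.00018). *Bmp4* (ENSMUSG00000021835, chr14:46383520-46390669), the ligand with the highest level per length, had 7481 to 12901 in WT (median 10269) and 4577 to 6673 in rd6 (median 5120). Its lowest WT value was that of replicate 4. *Bmp4* fell by 0.92 on the log2 scale (1.89-fold lower, SE 0.12, limma q = 0.00016). *Bmp7* (ENSMUSG00000008999, chr2:172868012-172940321), from the branch of *Bmp6*, had 5329 to 6565 in WT (median 6028) and 3755 to 4886 in rd6 (median 4357). The genotypes did not overlap, although the change was the smallest of the ligands (1.38-fold lower, log2 fold change -0.47 ± 0.07 SE, limma q = 0.00041).

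Of the inhibitors, *Smad6* (ENSMUSG00000036867, chr9:63953076-64022059), which blocks receptor-regulated Smads of the BMP branch, had 398 to 563 in WT (median 524) and 607 to 812 in rd6 (median 639). Every rd6 library was above every WT library, with replicate 1 of rd6 the highest. It rose 1.33-fold (log2 fold change 0.41 ± 0.10 SE, limma q = 0.0090), a call that was lost when the level of endothelial markers, described below, was added to the model (0.23, limma q = 0.24). *Smad6* lies on the same chromosome as *Mfrp*, as do *Smad3*, *Tcf12*, *Tgfbr2* and *Acvr2b* among the called genes named below, so for these 5 genes an effect of the region around the rd6 allele cannot be told apart from the loss of MFRP. *Smad7* (ENSMUSG00000025880), which inhibits both the BMP and the TGF-beta branch, had 477 to 644 in WT (median 546) and 499 to 714 in rd6 (median 616), and 2 rd6 libraries exceeded the WT range. Its log2 fold change was 0.15 (95% confidence interval -0.06 to 0.36, limma q = 0.29).

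*Bambi* (ENSMUSG00000024232), a receptor-like protein with no kinase domain, ran from 123 to 408 in WT (median 166) and from 218 to 461 in rd6 (median 304). The highest WT value, that of replicate 4, was more than the value of 5 of the 6 rd6 libraries, while the other WT libraries did not exceed 188. The log2 fold change was 0.70 (95% confidence interval 0.14 to 1.27, limma q = 0.072). Without WT replicate 4 it was 0.93, with limma q = 0.0024. The call on *Bambi* therefore turned on that library. No other member gained or lost its call when a single library was left out.

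Compared per length, as normalized counts per kilobase of annotated exon, the order of the members changed. In WT, *Bmp4* was the highest at 4540 ± 817 (SD, n = 6) and did not overlap *Id2*, the next at 1706 ± 213. From there *Bmp7*, *Id3*, *Bmp2* and *Id1* followed, each overlapping its neighbour in the order, down to 722 ± 210 for *Id1*. *Smad6* and *Smad7* overlapped at 156 ± 19.9 and 121 ± 12.6, and *Id4* at 66.3 ± 7.5 overlapped *Bambi* at 39.3 ± 20.7. In rd6 RPE, *Id2* stood first at 4342 ± 488, separate from *Id3* at 2611 ± 394. *Id3* overlapped *Bmp4* at 2381 ± 328, which in turn overlapped *Id1* at 1869 ± 322. *Bmp7*, *Bmp2*, *Smad6* and *Smad7* then followed with no overlap between neighbours, and *Bambi* and *Id4* overlapped at the end, at 60.7 ± 16.9 and 56.1 ± 15.0.

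**Figure D2:**
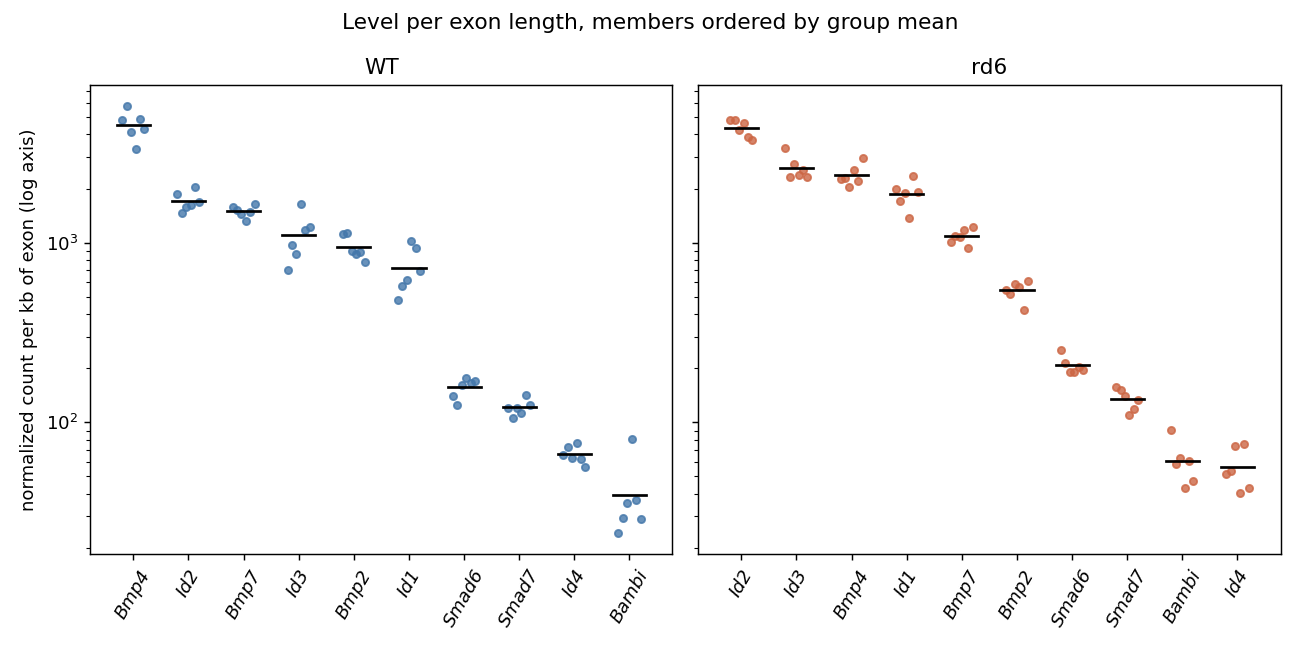
Normalized count per kilobase of exon (log axis) of the 10 members in WT (left) and rd6 (right) libraries, ordered by group mean; points are libraries and black lines are means. *Bmp4* leads in WT at a mean of 4540, and *Id2* leads in rd6 at 4342.

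Whether members of a family changed by different amounts was tested with the log2 ratio of each pair within a library, over 10 pairs with Benjamini-Hochberg adjustment. *Id4* parted from the others. The *Id2*/*Id4* log2 ratio went from 4.02 ± 0.28 in WT to 5.64 ± 0.45 in rd6 (SD), a difference of 1.62 ± 0.22 SE (adjusted exact permutation p = 0.0054). The differences for *Id1*/*Id4* and *Id3*/*Id4* were 1.68 ± 0.20 SE and 1.57 ± 0.23 SE, with the same adjusted exact p = 0.0054. Among *Id1*, *Id2* and *Id3* the ratios differed between genotypes by 0.05 to 0.11 on the log2 scale, with standard errors of 0.13 to 0.23 (adjusted exact permutation p = 0.51 to 0.84), so that a difference in the size of their rises was not detected.

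Among the ligands, *Bmp4* fell more than *Bmp7*: the log2 ratio was 0.75 ± 0.22 in WT and 0.29 ± 0.13 in rd6 (difference -0.45 ± 0.10 SE, adjusted exact permutation p = 0.0054). *Bmp2* also fell more than *Bmp7* (-0.33 ± 0.10 SE, adjusted exact permutation p = 0.026), but the adjusted p rose to at most 0.052 when WT replicate 1, 2 or 3 or rd6 replicate 5 was left out. *Bmp2* and *Bmp4* gave a difference of 0.12 ± 0.12 SE (adjusted exact permutation p = 0.45). The *Smad6*/*Smad7* ratio was higher in rd6 by 0.26 ± 0.09 SE (adjusted exact permutation p = 0.040). This last call was lost without any of WT replicates 1, 2, 3, 5 and 6 or rd6 replicates 1, 4 and 5, with an adjusted p of at most 0.079, while the difference stayed between 0.23 and 0.32.

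**Figure D3:**
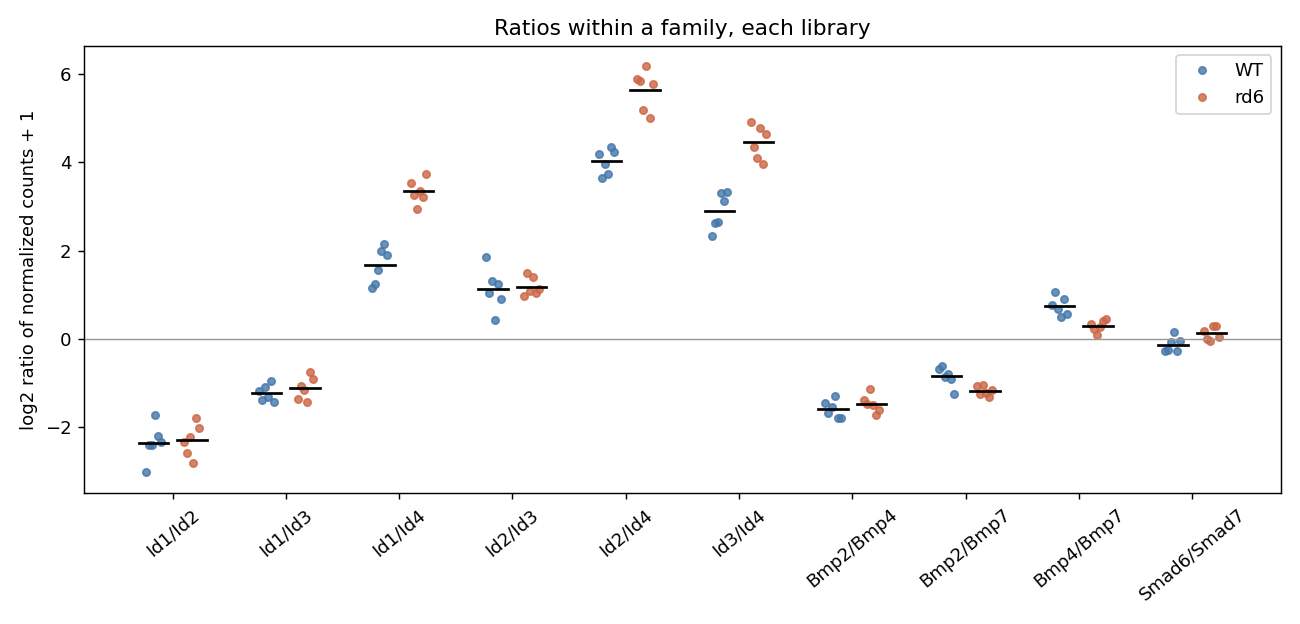
Log2 ratio of the normalized counts + 1 of each pair of family members (horizontal axis) in each WT (blue) and rd6 (red) library; black lines are means. The 3 ratios to *Id4* are higher in every rd6 library than in any WT library, and *Bmp4*/*Bmp7* is lower.

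The rest of the pathway was read from lists of genes by role, 51 of which were tested. Of these, 10 were called higher and 9 lower (19.6% and 17.6%, beside 11.4% and 11.6% of all tested genes), and the median log2 fold change was 0.07. With the level of endothelial markers in the model, 4 were higher and 4 lower (beside 911 and 895 of all tested genes), and the calls lost in that way are named below with those markers. Among 5 other ligands tested, 2 fell and none rose by limma. *Bmp6*, known for its part in iron balance and in the branch of *Bmp7*, fell by 0.74 on the log2 scale, from 5627 ± 799 to 3375 ± 599 normalized counts (SD, limma q = 0.0015), with no overlap. *Bmp15* (-0.69, limma q = 0.0074) was the other, named here after its values were seen. *Gdf11*, a ligand of the activin branch, was at 5677 ± 814 in WT and at 4673 ± 400 in rd6 (limma q = 0.061, or 0.0032 without WT replicate 4), and *Gdf10* had a log2 fold change of 0.33 (limma q = 0.56).

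Among 11 receptors and co-receptors, 4 rose and 1 fell. *Acvrl1* (log2 fold change 0.82, limma q = 0.026) and *Eng* (0.76, limma q = 0.039) are a type I receptor and a co-receptor known mainly from endothelium. Both calls were lost without WT replicate 1, 2 or 6 or rd6 replicate 1, 2 or 3, and that of *Eng* also without rd6 replicate 6 (limma q of at most 0.062 and 0.087). *Hjv*, a co-receptor known from iron balance in liver and muscle, went from 291 ± 120 to 542 ± 83.9 (log2 fold change 1.02, limma q = 0.020), without a call once endothelial markers were in the model (0.98, limma q = 0.15). Named after their values were seen, the co-receptor *Rgma* rose from 919 ± 72.8 to 1416 ± 47.8 (limma q = 4.9e-06) and the type II receptor *Acvr2b* fell by 0.74 on the log2 scale (limma q = 0.0059). *Bmpr2* and *Bmpr1a*, a type II and a type I receptor of BMP ligands, had log2 fold changes of -0.06 and -0.21 (limma q = 0.69 and 0.077). *Acvrl1*, *Eng*, *Rgma*, *Acvr2b*, *Bmp6*, *Bmpr2* and *Bmpr1a* overlap other annotated genes, as do *Smad4*, *Smad5*, *Crim1*, *Tob2*, *Tcf4*, *Tcf12* and *Tgfb2* below, which leaves their values uncertain to that extent.

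Of 4 signal-carrying Smads, *Smad9* rose from 151 ± 44.4 to 311 ± 52.6 (log2 fold change 1.06 ± 0.17 SE, limma q = 0.00058) and *Smad1* from 301 ± 23.1 to 409 ± 25.7 (0.44 ± 0.07 SE, limma q = 0.00055), each without overlap. *Smad5*, also receptor-regulated, fell by 0.17 on the log2 scale (limma q = 0.036), a call lost without any of WT replicates 1 to 4 or rd6 replicates 2, 4 and 6 (limma q of at most 0.077). *Smad4*, the common partner, was at -0.14 (limma q = 0.074, or 0.028 without rd6 replicate 1).

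The extracellular antagonists gave the largest change among all pathway genes tested. *Nog* (chr11:89300638-89302332) encodes noggin, which binds BMP ligands and keeps them from their receptors. It had 3353 to 5749 normalized counts in WT (median 3839) and 235 to 432 in rd6 (median 399), so that the genotypes were far apart. *Nog* fell by 3.49 on the log2 scale (11.2-fold lower, SE 0.17, limma q = 3.9e-08). *Sostdc1*, an antagonist of BMP and Wnt signals, fell from 7100 ± 756 to 3744 ± 548 (1.9-fold lower, limma q = 4.4e-05), also without overlap. *Crim1*, a membrane protein that binds BMPs, fell by 0.37 on the log2 scale (limma q = 0.049), a call that held only without WT replicate 4 or rd6 replicate 4 when libraries were left out in turn (limma q otherwise up to 0.11). *Sost*, better known as an inhibitor of Wnt, rose at low counts from 4.9 ± 4.2 to 32.3 ± 19.9 (log2 fold change 2.70, limma q = 0.0084). The size of this change depended on the pseudocount, at 3.48 with 0.1 and 1.41 with 10 in place of 1. With endothelial markers in the model its log2 fold change was 1.34 and the call was lost (limma q = 0.26). In all, 2 of 15 tested antagonists were called higher and 3 lower. *Fstl1* and *Twsg1*, secreted binding proteins, did not pass the test (0.27 and 0.07 on the log2 scale, limma q = 0.10 and 0.53), although *Fstl1* did without WT replicate 4 (limma q = 0.042).

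**Figure D4:**
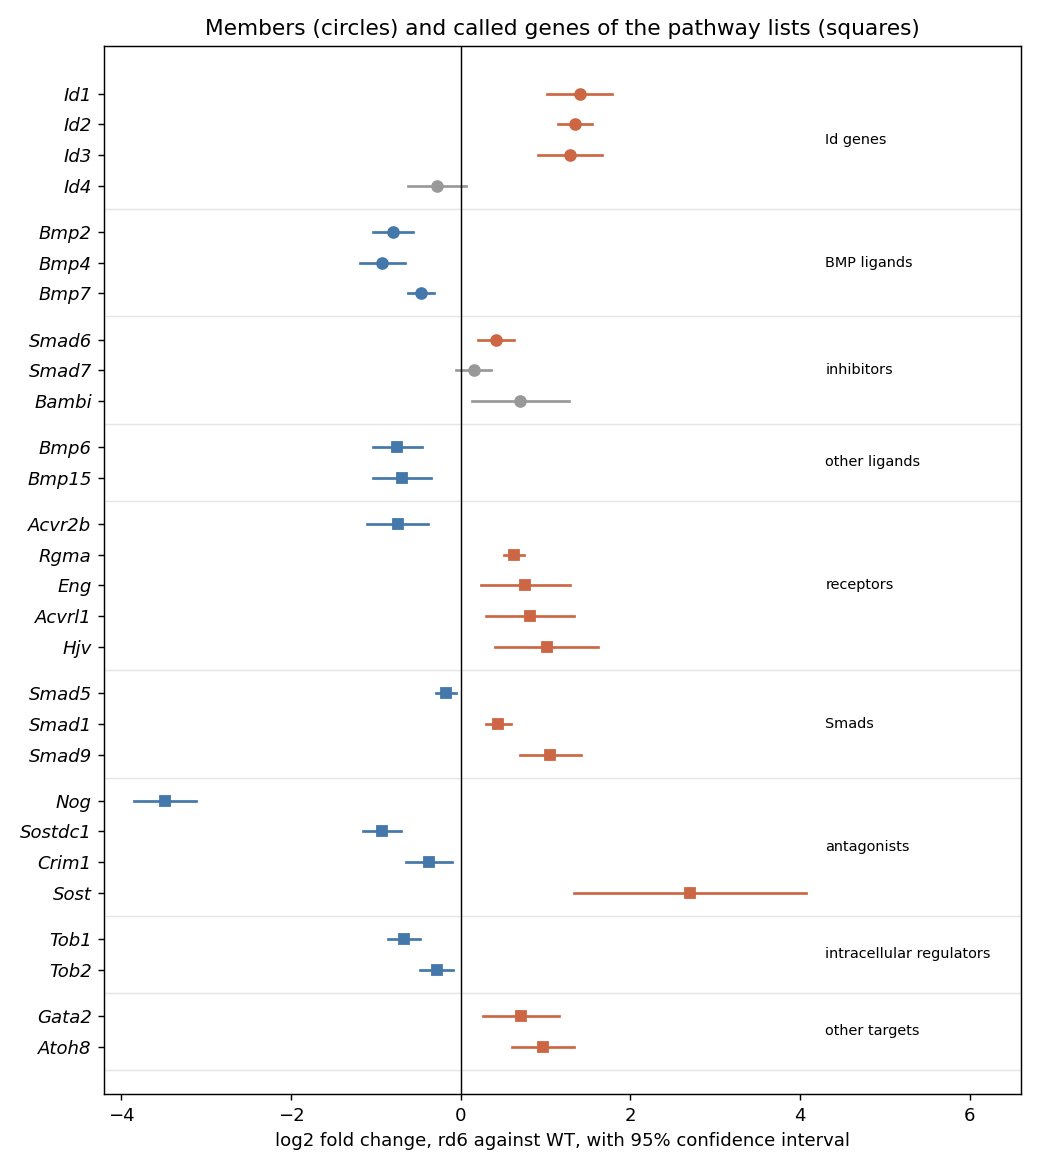
Fold change between rd6 and WT (horizontal axis, log2) and its 95% confidence interval for the 10 members (circles) and called genes of the pathway lists (squares), grouped by role; red was called higher, blue lower and grey not called. The 3 BMP ligands and *Nog*, at -3.49, lie to the left of 0, and *Id1*, *Id2* and *Id3* lie between 1.29 and 1.40.

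Of 7 intracellular regulators, none rose and 2 fell by limma: *Tob1* (-0.67, limma q = 0.00013, no overlap) and *Tob2* (-0.28, limma q = 0.041), which are repressors of BMP Smads. *Ppm1a*, a phosphatase of Smads, was at -0.02 (limma q = 0.80). Of 9 other target genes tested, 2 rose and none fell. *Atoh8*, a basic helix-loop-helix factor, rose from 101 ± 14.8 to 202 ± 46.9 (log2 fold change 0.97, limma q = 0.0013, or 0.55 and q = 0.044 with endothelial markers in the model), and *Gata2*, a factor of blood and endothelium named after its values were seen, was at 0.72 (limma q = 0.025). The call on *Gata2* was lost without WT replicate 2 or rd6 replicate 1, 2 or 3 (limma q of at most 0.059), and that on *Tob2* without WT replicates 1 to 4 or rd6 replicates 1 to 4, each left out in turn (limma q of at most 0.088). *Hes1*, *Hey2* and *Tgfbi* had log2 fold changes of -0.14, 0.09 and -0.67 (limma q = 0.57, 0.81 and 0.56). The value of *Tgfbi* rested on WT replicate 4, with 3681 normalized counts where the other WT libraries had 176 to 294, and without that library it was -0.013 (limma q = 0.99). Among the E proteins, the partners of the Id proteins, *Tcf12* fell by 0.28 on the log2 scale (limma q = 0.014), and *Tcf3* and *Tcf4* were at 0.15 and -0.03 (limma q = 0.30 and 0.86).

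In the related TGF-beta and activin branch, 4 of 12 tested genes rose and 1 fell (beside 11.4% and 11.6% of all tested genes). They are again named after their values were seen. *Inhbb*, a subunit of activin, went from 102 ± 46.7 to 307 ± 24.3 (log2 fold change 1.70, limma q = 0.00026). The ligands *Tgfb1* (0.83, limma q = 0.0015) and *Tgfb2* (1.19, limma q = 0.014) and the receptor *Tgfbr2* (0.50, limma q = 0.00071) were the other genes that rose. The calls on *Tgfb1* and *Tgfb2* were lost with endothelial markers in the model, as given below. *Smad3*, which carries the signal of this branch, fell by 0.29 on the log2 scale (limma q = 0.0043).

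Markers of other cells moved with the genotype. Of 10 endothelial markers, 7 were called higher in rd6 and none lower (median log2 fold change 0.80). Their summed level ran from 7940 to 15026 in WT and from 11415 to 27904 in rd6 libraries, and none was at 0 in any library. In rd6 replicates 4 and 5 the sum, 11415 and 14323, was within the WT range. *Id1*, *Id2* and *Id3* in these libraries were above all WT libraries (for *Id1*, 1593 and 2719). As this held for every rd6 library, it adds nothing to the separation given above. With the log2 of the endothelial sum added to the model, chosen after the data were seen, the log2 fold changes were 1.24 for *Id1*, 1.22 for *Id2* and 1.21 for *Id3* (limma q = 0.0066, 4.6e-05 and 0.0075). The 3 ligands also kept their calls, at -0.78 for *Bmp2*, -0.80 for *Bmp4* and -0.42 for *Bmp7* (limma q = 0.0063, 0.0087 and 0.017). *Smad6*, *Hjv* and *Sost* lost their calls, as given above. So did *Acvrl1* (0.05, limma q = 0.74), *Eng* (-0.02, limma q = 0.88) and *Gata2* (0.10, limma q = 0.69). Of the genes that had fallen, *Acvr2b*, *Bmp15*, *Smad5*, *Crim1*, *Tob2* and *Tcf12* were no longer called (limma q = 0.11, 0.086, 0.090, 0.26, 0.38 and 0.11), at log2 fold changes of -0.62, -0.67, -0.22, -0.35, -0.20 and -0.28. The same held for the ligands *Tgfb1* (0.51, limma q = 0.065) and *Tgfb2* (1.27, limma q = 0.088), whereas *Nog* was at -3.65 and *Smad9* at 1.04 (limma q = 2.7e-06 and 0.015).

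**Figure D5:**
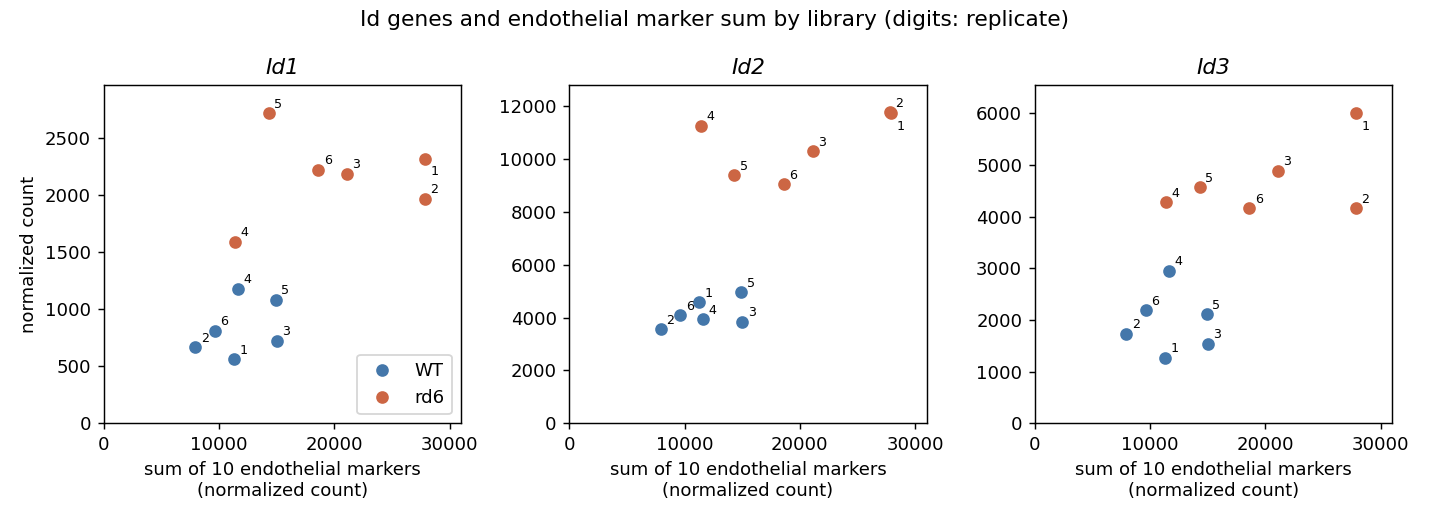
Normalized count of *Id1*, *Id2* and *Id3* (vertical axes) against the summed normalized count of 10 endothelial markers (horizontal axis) in each WT (blue) and rd6 (red) library; digits are replicate numbers. Both genotypes have libraries at sums between 11415 and 15026. The rd6 libraries are above the WT libraries for all 3 genes at these sums, as they are at every other sum.

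Of 10 microglia and macrophage markers, 9 were called higher (median log2 fold change 2.63). The sum was 13944 to 19524 in WT and 20835 to 27769 in rd6, without overlap. Most of this sum was *Csf1r*, the marker that was not called, so it rose less than the median marker. Rod markers were lower for 4 of 10 (median -0.97), with sums of 33174 to 71522 in WT and 17219 to 61753 in rd6, the highest of these in rd6 replicate 5. RPE markers were lower for 4 of 12 and melanocyte markers for 2 of 6. Mural markers were higher for 2 of 8, fibroblast markers lower for 1 of 7, and Muller glia markers higher for 1 and lower for 1 of 7. None of these markers was at 0 in any library. The part of these cells in the changes of the members was not tested. The endothelial sum itself moved with the genotype, so in the model that holds it their effects cannot be fully told apart.

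Upstream sequence is shown for members of each direction where RefSeq windows (GRCm38.p6) were at hand, which was the case for 5 of 10 members. Each window is the 250 bases before the start of the gene as RefSeq gives it, printed where no annotated exon covers it. For *Id2* and *Id3* that start lies inside the longer gene of the GENCODE annotation, so that their windows are within it and not before it. In the sequences, capitals mark GGCGCC, a GC-rich element bound by BMP Smads, and GTCT on either strand, the core of the Smad-binding element. The windows are chr12:25096254-25096342 for *Id2* (- strand, the 89 bases of the window that lie in an intron of another annotated transcript), chr9:64022060-64022309 for *Smad6* (- strand), chr13:48260866-48261115 for *Id4* (+ strand) and chr14:46390670-46390919 for *Bmp4* (- strand).
Id2: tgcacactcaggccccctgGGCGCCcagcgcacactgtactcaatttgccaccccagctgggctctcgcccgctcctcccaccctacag
Smad6: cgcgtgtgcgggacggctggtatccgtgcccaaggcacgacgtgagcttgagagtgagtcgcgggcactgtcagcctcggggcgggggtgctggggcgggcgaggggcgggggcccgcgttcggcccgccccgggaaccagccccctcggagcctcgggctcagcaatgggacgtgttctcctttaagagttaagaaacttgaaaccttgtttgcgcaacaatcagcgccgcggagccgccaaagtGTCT
Id4: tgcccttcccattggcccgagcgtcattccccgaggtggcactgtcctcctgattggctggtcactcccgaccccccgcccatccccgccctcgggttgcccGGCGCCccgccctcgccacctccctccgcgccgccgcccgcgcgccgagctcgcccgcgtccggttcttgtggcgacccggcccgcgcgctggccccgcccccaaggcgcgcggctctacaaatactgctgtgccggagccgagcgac
Bmp4: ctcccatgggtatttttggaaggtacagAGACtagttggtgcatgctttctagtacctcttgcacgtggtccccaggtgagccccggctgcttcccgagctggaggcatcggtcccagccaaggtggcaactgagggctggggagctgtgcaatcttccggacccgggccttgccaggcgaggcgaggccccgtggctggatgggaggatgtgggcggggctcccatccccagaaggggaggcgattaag

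GGCGCC, which reads the same on both strands, occurred in 9.59% of 32851 windows of this length, and GTCT or its complement AGAC in 82.9%. The whole 250-base windows of *Id2*, which rose, and of *Id4*, which was not called, each held GGCGCC 1 time. Those of *Id3*, *Smad6* and *Bmp4* held none. GTCT or AGAC occurred 1 time for *Id2*, *Smad6* and *Bmp4*, 2 times for *Id3* and not at all for *Id4*. These are matches of letters within short windows and say nothing of binding.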

How the data were processed

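RPE of 6 WT and 6 rd6 mice was sequenced as total-RNA libraries. Alignment to mm10 and counting were done by the authors with Rsubread at its standard settings (the version and the use of strand are not given in the sources used here), and bcl2fastq, FastQC and DESeq2 are named in the submitters' processing notes. The deposited signal is the read count per gene over the size factor that DESeq2 gave each library. The deposited table also holds the authors' mean, fold change, standard error, test statistic and p-values of rd6 against WT, which were not used. Of 28596 entries, 5 repeated ones were dropped. In each library all values were whole multiples of the value of 1 read (tolerance 0.001), so that reads were recovered for 100% of values. Depth was 28907262 to 33152725 reads per library, and this covers counting error only. No pair of libraries agreed within sampling noise, and all 12 columns were matched to a sample by name.

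The main test was limma 3.58.1 (R 4.3.3, lmFit and eBayes with trend) on log2(value + 1), for 17768 genes whose mean was 10 or more, with genotype as the only term. Fold changes are on this scale and understate changes of low genes. Single values and ratios were tested with two-sided exact permutation tests over the splits into 6 and 6. As alternatives, the recovered reads were tested with edgeR 4.0.16 and DESeq2 1.42.0. Further alternatives were a pseudocount of 0.1 or 10, the removal of the filter, a minimum of 10 in each library, TMM rescaling, the replicate number as a block, leaving out each library, and, added after seeing the data, the endothelial marker sum as a covariate. The limma, edgeR and DESeq2 fits were tested on simulated counts with known changes. Named genes are the members, pathway genes called with at least 1.75-fold change, up to 3 further genes per pathway list with the largest mean level, and the 3 genes most like *Id1*, *Id2* and *Id3*. Others are said to be chosen after their values were seen. A few genes are left out of the text and the plots but stay in the counts. The members and lists were chosen with earlier results of these data known. Labels do not tie libraries to litters or dates. Gene coordinates and exon lengths are from GENCODE M21 (GRCm38), upstream windows from RefSeq (GRCm38.p6), and the coding sequences were aligned with MAFFT 7.526.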

Additional observations from a re-analysis of the deposited data

Results flagged for a closer look

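*Bambi* in WT replicate 4 had 408 normalized counts, where the other 5 WT libraries had 123 to 188. Its gap to the nearest WT library was 0.77 of the range of the group, above the limit of 0.625 for 6 samples (Dixon's test). Of 20 groups tested (10 members in 2 genotypes), this was the single group past the limit, and chance alone gives about 1 in 20. The same library had the highest WT values of *Id1*, *Id3*, *Id4* and *Smad6* and the lowest of *Bmp4* and *Bmp7*.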

How the results depend on the processing

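*Id1*, *Id2*, *Id3*, *Bmp2*, *Bmp4* and *Bmp7* kept their direction and their call under all 22 alternatives, with log2 fold changes of 1.24 to 1.51, 1.22 to 1.40, 1.18 to 1.42, -0.85 to -0.73, -1.01 to -0.80 and -0.50 to -0.42. *Smad6* lost its call with the replicate number as a block (0.41, limma q = 0.053) and with the endothelial sum in the model. With the endothelial sum, the sign turned for *Eng* (-0.022) and, among genes not called, *Smad7* (-0.11, limma q = 0.47), *Gdf10* (-0.33) and *Hey2* (-0.19). With that sum, 4 other pathway genes were higher and 4 lower, in place of 10 and 9, and 911 and 895 of all genes, in place of 2024 and 2062. *Acvr2b*, *Bmp15*, *Hjv*, *Sost*, *Tgfb1* and *Tcf12* lost their calls under that alternative only, and *Tgfb2* also with the replicate block (limma q = 0.059). The cause was not tested. With edgeR's upper quartile scaling the sign turned for *Ppm1a* (0.022) and *Tcf4* (0.023), which were not called. Leaving out each library in turn gave 4 to 5 members higher, 3 lower, 7 to 13 other pathway genes higher and 6 to 9 lower, beside 1631 to 2428 and 1593 to 2293 of all genes. *Crim1*, *Tob2*, *Smad5*, *Acvrl1*, *Eng* and *Gata2* were called lower or higher near the threshold and lost the call under 15, 13, 11, 8, 9 and 6 of 22 alternatives. *Nog*, *Sostdc1*, *Smad9*, *Smad1*, *Rgma*, *Bmp6*, *Tob1*, *Atoh8*, *Inhbb*, *Tgfbr2* and *Smad3* lost it under none. *Gdf11* and *Smad4* passed the test with DESeq2 (q = 0.022 and 0.044).

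WT and rd6 libraries share replicate numbers, but same-numbered libraries did not deviate together (correlations of -0.74 to 0.31, 1 of 6 above 0.1, and no library correlated best with its own number). Whether the numbers mark a shared litter or date is not given by the labels, and these correlations cannot settle it. With the replicate block, 3 members were higher and 3 lower (1453 and 1489 of all genes), and the adjusted p of the 6 ratios that had passed rose to 0.0625 or, for *Bmp2*/*Bmp7*, 0.10, where the smallest p of 6 sign flips is 0.031. Among the ratios that were not called, *Id1*/*Id2* ran from -0.081 to 0.18 and *Id2*/*Id3* from -0.085 to 0.20 when each library was left out, so that their sign changed. The same was true of *Bmpr2* (-0.11 to 0.0098), *Hey2* (-0.036 to 0.25) and *Tcf4* (-0.078 to 0.043), none of them called. Depth limited mainly *Sost*, whose WT mean was 4.9 normalized counts.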

Other observations

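After the mean of each genotype was subtracted from log2(value + 1), *Id1* and *Id3* varied together across the 12 libraries (Pearson's r = 0.78, permutation p = 0.0097, Spearman's rho = 0.71, permutation p = 0.030, adjusted to 0.029 and 0.089 over 3 relations). Within the 6 WT libraries r was 0.91 and within the 6 rd6 libraries 0.37. Without WT replicates 1 and 4, the libraries farthest from the median of *Id1*, r was 0.51, so that the relation rests in part on them. For *Id2* the values were lower, with *Id1* (r = -0.07, rho = 0.03, permutation p = 0.85 and 0.94, adjusted to 0.91 and 0.94, and r = 0.19 without WT replicates 1 and 4) and with *Id3* (r = 0.04, rho = 0.21, permutation p = 0.91 and 0.55, adjusted to 0.91 and 0.82, and r = -0.10 without WT replicates 2 and 5).

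Among 12873 other genes with a mean of at least 100, *Rpl39-ps* and *Rpl13-ps6*, pseudogenes of ribosomal protein genes, were among the 3 whose variation within the genotypes was most like that of *Id1* (r = 0.97 each, over 12 libraries). Neither was called between the genotypes (limma q = 0.44 and 0.37). For *Id3* the 3 genes were *Plekhf1*, *Ube2b* and *Sh3bp5l* (r = 0.91 each), and for *Id2* they were *Xpc*, *Maoa* and *Rspry1* (r = 0.82 each). These correlations are the highest of many and are given as a description.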
